A study of Oniscidea with 6 samples.

Results

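HSP70 and HSP90 are the most abundant families of ATP-driven protein chaperones, and 10 mouse gene symbols of these families were followed in RNA of rolling and stretching woodlice. The members were taken by name, in a choice made with earlier results of these data known. They are 10 of 24421 symbols in the deposited table, and all 10 had reads. The cytosolic HSP70 members are Hspa1a, Hspa1b, Hspa1l, Hspa2 and Hspa8, and the cytosolic HSP90 members are Hsp90aa1 and Hsp90ab1. Hspa5 and Hsp90b1 belong to the endoplasmic reticulum (ER), and Hspa9 belongs to mitochondria.

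HSP70 proteins bind short hydrophobic stretches of unfolded proteins and release them on an ATP cycle that is driven by J-domain proteins and nucleotide exchange factors. HSP90 proteins are dimers that take over part of these clients at a late stage of folding, together with their own co-chaperones. In animals the cytosol holds both constitutive members and members induced by heat or other stress, while the ER and the mitochondria each have dedicated members.

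Poly(A) RNA came from fresh tissue of Oniscidea, the suborder of terrestrial isopod crustaceans, with 3 rolling and 3 stretching samples. All samples were untreated, and species, sex, age, strain and tissue are not named in the labels. The labelled organism is a crustacean, whereas the symbols are those of the mouse, so a symbol here is only a name given to woodlouse reads. The submitters' notes name BWA and the mouse build mm10 but not their roles, so how the reads received mouse names is not stated outright. No woodlouse orthologue can be read from a symbol. Separate animals are not stated either, so the p-values reflect only how these samples scatter, which can be technical scatter. In bulk RNA, fewer cells of a type and less RNA per cell cannot be told apart. Whether rolling and stretching samples are of the same species is not stated. The part of sequence differences between them in the counts was not tested.

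Counted reads numbered 416821 to 1122154 per rolling library and 403971 to 544157 per stretching library. All values below are normalised read counts, that is, reads divided by the authors' size factor of the library. In rolling 3, which had the highest summed normalised count, the 20 features of highest mean took 79.5% of the reads, against 40.1% to 67.2% in the other libraries. No tissue is labelled, and 2 of 3 lists of tissue markers had separate sums in the groups. The summed level of 23 muscle sarcomere genes was 16296 to 70579 in rolling and 12028 to 15185 in stretching, with 6 of the 23 without a read. Of its 7 tested genes, 3 were higher and 1 was lower in rolling, with Acta1 at a mean of 25001 in rolling against 4086 in stretching, and Myh6 at 9.33 in rolling against 1467 in stretching. That of 12 neuron and synapse genes was 757 to 1410 in rolling and 71.9 to 101 in stretching, with all 12 having reads and all 4 tested genes higher. That of 12 genes of digestive enzymes was 575 to 1750 in rolling and 1377 to 1641 in stretching, with 3 of the 12 without a read. These sums overlapped, and of 6 tested genes 2 were higher and 4 lower. The part of tissue makeup in the differences below was not tested.

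The 10 members together held 0.0762% to 0.300% of the reads of a rolling library and 0.141% to 0.295% of those of a stretching library. Of the 10, 7 had a mean of at least 10 over the 6 samples and were tested, and Hspa1a, Hspa1b and Hsp90ab1 fell under that level. Hspa1l and Hsp90b1 were higher in rolling, while Hspa8, Hspa9 and Hsp90aa1 were lower, by limma with Benjamini-Hochberg adjustment at 0.05. Hspa5 and Hspa2 did not pass the test. The share called, 5 of 7, stands beside 75.2% of all 2948 tested features, of which 37.8% were higher and 37.4% lower in rolling, so a call as such does not set the members apart. Rolling and stretching values were fully apart for 5 of the 7, with rolling above for 2 and below for 3, beside 78.7% of tested features, 39.8% above and 38.8% below. The median absolute log2 fold change was 2.90 over the 7 tested members and 2.82 over all tested features.

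**Figure D1:**
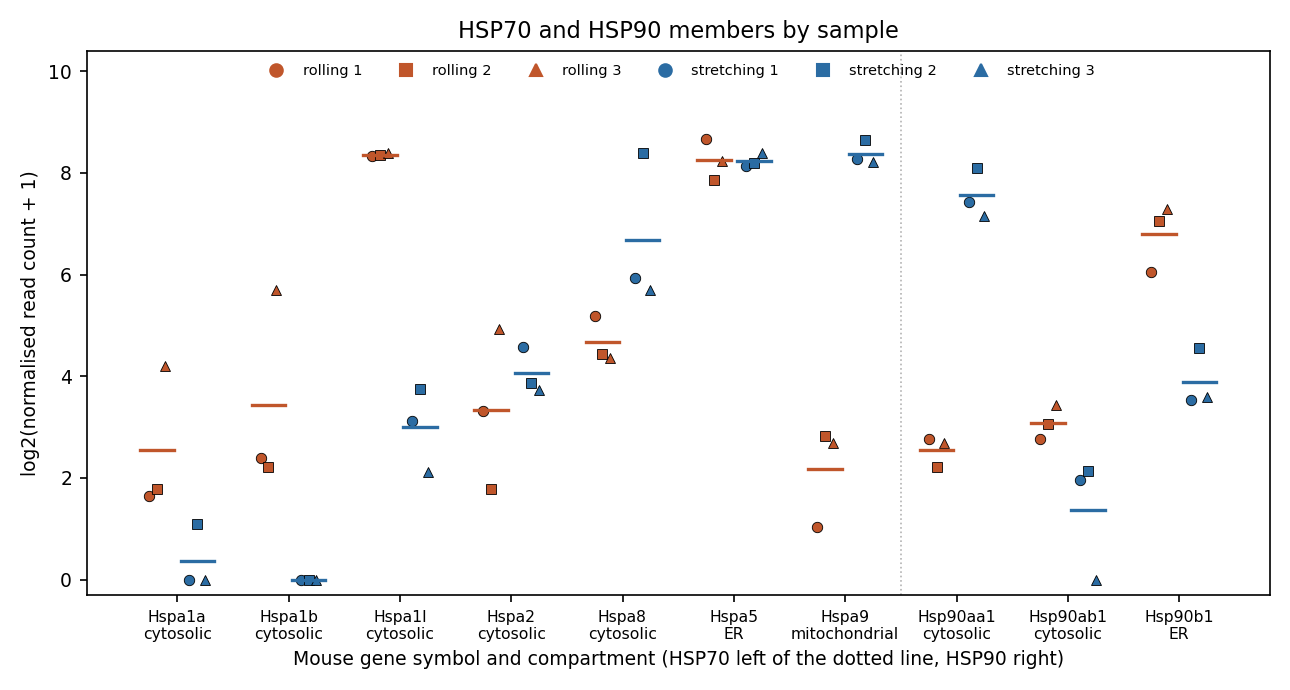
Each point is the log2(normalised read count + 1) of a member in 1 sample, with rolling left of stretching for each gene and horizontal lines at group means. Hspa1l and Hsp90b1 stand high in rolling, Hspa9 and Hsp90aa1 stand high in stretching, and the points of Hspa5 overlap.

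Among the cytosolic HSP70 members, Hspa1l carried most of the rolling reads. Hspa1l is a constitutive relative of the heat-inducible genes and is known in mice chiefly from testis. It stood at 320, 324 and 336 in rolling 1 to 3, against 7.67, 12.5 and 3.32 in stretching 1 to 3. On this scale the rolling values lay within a narrow band, and each of them exceeded every stretching value by far. As a share of counted reads the rolling values spread more, from 0.0275% to 0.113%. They still lay above those of stretching, at 0.000551% to 0.00272%. The fitted change was 5.36 ± 0.44 (log2, SE; adjusted p 5.8e-06 by limma). In reads, 1182 in rolling stood against 22 in stretching, a depth-adjusted ratio of 41.8 (95% Clopper-Pearson interval for counting error 27.5 to 67.0).

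Hspa8, the constitutive cytosolic HSP70 that also strips clathrin coats from vesicles, went the other way. It stood at 35.3, 20.8 and 19.6 in rolling, against 60.4, 335 and 51.0 in stretching. All rolling values lay below all stretching values, and stretching 2 stood far above the other 2 stretching libraries. Rolling minus stretching came to -2.01 ± 0.68 (log2, SE; adjusted p 0.022 by limma). It was -1.16 (adjusted p 0.040) without stretching 2. The call was lost without rolling 2 (log2 fold change -1.91, limma adjusted p 0.085) and without rolling 3 (-1.86, 0.069), and as a share of counted reads the groups overlapped, at 0.00160% to 0.0124% in rolling and 0.00845% to 0.0733% in stretching. Stretching 2 was at least 3 times above both other stretching libraries for 44 tested features (1.49%).

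Hspa1a and Hspa1b, the neighbouring and nearly identical heat-inducible genes of the mouse, had few reads. Hspa1b stood at 4.22, 3.67 and 51.1 in rolling and had no read in stretching. Hspa1a stood at 2.11, 2.45 and 17.4 in rolling, against 0, 1.13 and 0 in stretching. For both genes every rolling value lay above every stretching value, and rolling 3 held most of the signal. How reads were split among the cytosolic HSP70 symbols was not examined. Because of the near identity of Hspa1a and Hspa1b, the split of reads between these symbols is uncertain, and their sum is the safer value. The pair had 80 reads in rolling, 63 of them in rolling 3, and 1 read in stretching, a depth-adjusted ratio of 62.3 (95% interval 10.9 to 2491). Without rolling 3 the ratio was 17.7 (2.78 to 741), from 17 reads against 1. With 58 reads against none, Hspa1b alone was at least 15.1-fold higher in rolling, against a floor of 3 reads over the stretching group, and at least 3.82-fold higher without rolling 3. Neither gene was tested here, whereas the authors' deposited table called both higher in rolling, with adjusted p 0.042 for Hspa1a and 0.00039 for Hspa1b. Of 10612 features with an adjusted p there, 37.2% were called, 18.7% higher and 18.5% lower in rolling.

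Hspa2, an HSP70 that is required for sperm formation in mice, did not separate the groups. It stood at 8.96, 2.45 and 29.3 in rolling, against 23.0, 13.6 and 12.2 in stretching. The rolling values spanned the whole stretching range, with rolling 3 highest and rolling 2 lowest of the 6. The fitted difference was -0.72 ± 0.73 (log2, SE; adjusted p 0.39 by limma), with a 95% interval of -2.36 to 0.93. It was -1.51 (limma adjusted p 0.050, just under the threshold) without rolling 3 and 0.06 without rolling 2.

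The ER members differed from each other. Hspa5, known as BiP, is the HSP70 of the ER lumen. It stood at 403, 233 and 300 in rolling, against 279, 292 and 333 in stretching. Its groups overlapped, and it had 190 to 765 reads in each library, where every other member fell to 17 reads or fewer in at least 1 library. Rolling and stretching differed by 0.02 ± 0.36 (log2, SE; adjusted p 0.97 by limma), with a 95% interval of -0.81 to 0.84, and its sign turned with TMM scaling and with scaling to library totals.

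Hsp90b1, known as GRP94, is the HSP90 of the ER lumen. It stood at 65.4, 132 and 155 in rolling, against 10.5, 22.6 and 11.1 in stretching. No rolling value overlapped with a stretching value. Rolling minus stretching was 2.90 ± 0.46 (log2, SE; adjusted p 0.00035 by limma), from 375 reads in rolling and 41 in stretching. The log2 ratio of Hsp90b1 to Hspa5 within a sample was taken with 1 added to each value. It averaged -1.45 ± 1.0 in rolling and -4.34 ± 0.62 in stretching (SD, n = 3 each). The difference of 2.89 (SE 0.68) had an exact two-sided permutation p of 0.1, the smallest that 3 samples against 3 can give, and 0.1 after adjustment over the 2 pairs compared.

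Hspa9, known as mortalin, pulls proteins through the inner mitochondrial membrane and folds them in the matrix. It stood at 1.05, 6.12 and 5.43 in rolling, against 309, 400 and 296 in stretching. The rolling values were close to the level of a few reads, since 3 reads in a library correspond to 1.58 to 3.67, and they lay far below every stretching value. The fitted change amounted to -6.19 ± 0.50 (log2, SE; adjusted p 5.3e-06 by limma), from 12 reads in rolling and 942 in stretching. This was the largest change in size among the 7 tested members.

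Of the cytosolic HSP90 members, only Hsp90aa1 reached the level for testing. Hsp90aa1, the stress-inducible HSP90 of the cytosol, stood at 5.80, 3.67 and 5.43 in rolling, against 172, 271 and 141 in stretching. Rolling values were uniformly low and did not approach the stretching range. The fitted rolling-minus-stretching value was -5.00 ± 0.38 (log2, SE; adjusted p 3.9e-06 by limma), from 19 reads in rolling and 545 in stretching.

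Hsp90ab1, the constitutive HSP90 of the cytosol, stood at 5.80, 7.35 and 9.78 in rolling, against 2.87, 3.40 and 0 in stretching. The groups did not overlap, but they rested on 26 reads in rolling and 6 in stretching, a depth-adjusted ratio of 3.37 (95% counting interval 1.36 to 10.02). It was not tested here, and the authors' deposited table did not call it (adjusted p 0.19). The log2 ratio of Hsp90ab1 to Hsp90aa1 within a sample was taken with 1 added to each value. It averaged 0.53 ± 0.46 in rolling and -6.19 ± 0.86 in stretching (SD, n = 3 each). The difference was 6.72 (SE 0.56, exact two-sided permutation p 0.1, and 0.1 over the 2 pairs). Hsp90ab1 had no read in stretching 3, so the ratio of that sample rests on the added 1.

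**Figure D2:**
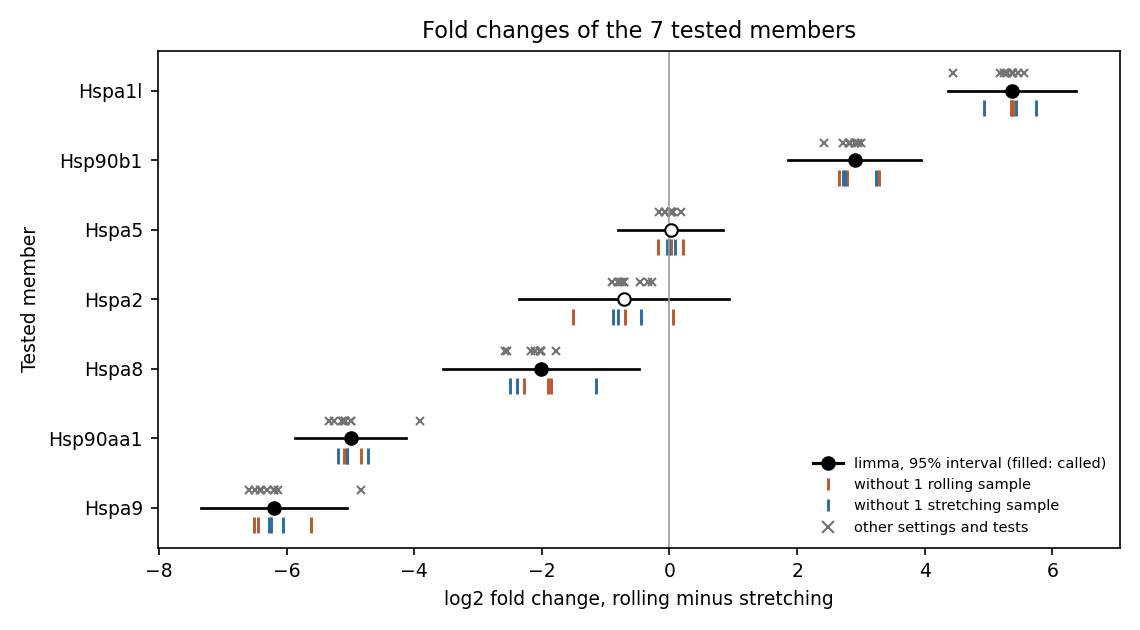
Circles give the log2 fold change (rolling minus stretching) of each tested member with its 95% interval, coloured ticks the value without 1 sample, and crosses the value under other settings and tests. The sign of Hspa1l, Hsp90b1, Hspa8, Hsp90aa1 and Hspa9 is the same for every tick and cross, while Hspa5 and Hspa2 have values on both sides of 0.

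The sum over the 7 HSP70 members overlapped between groups. It was 775, 593 and 759 in rolling, against 678, 1054 and 696 in stretching. Stretching 2 was highest and rolling 2 lowest, and the log2 ratio of the sums was -0.17 (SE 0.24), or 0.03 without stretching 2. The SE exceeded the size of the ratio.

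The makeup of the HSP70 reads differed more than their sum. Since 75.2% of all tested features were called, this need not be particular to HSP70, and the same was not examined for other gene sets. Hspa1l took 46.8 ± 7.05% of them in rolling and 0.930 ± 0.392% in stretching, and Hspa9 took 0.628 ± 0.455% in rolling, against 42.0 ± 3.81% in stretching (SD, n = 3 each). Hspa5 took 43.6 ± 7.28% in rolling, against 38.9 ± 10.3% in stretching, with overlapping groups. Hspa8 took 3.55 ± 0.988% in rolling, against 16.0 ± 13.7% in stretching, where stretching 2 alone stood at 31.8%. These are shares of reads, which also depend on the length of the sequence counted, so they do not rank the members by transcript number.

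**Figure D3:**
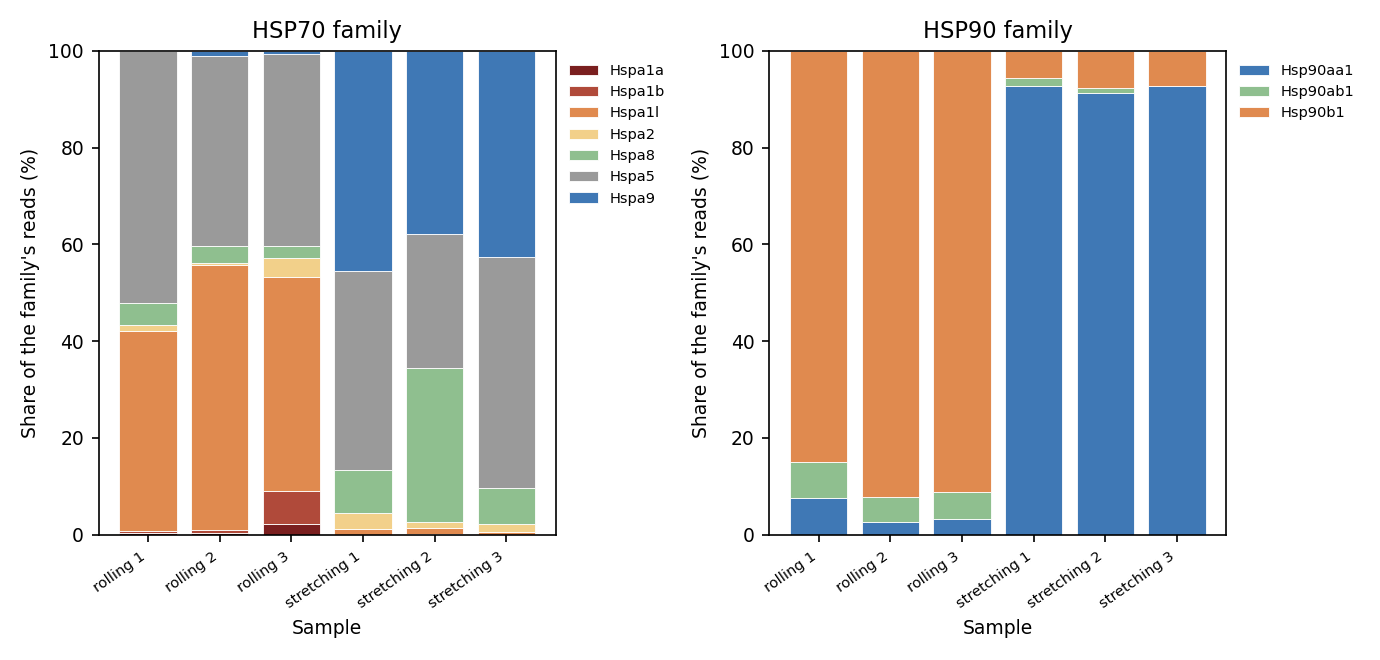
Stacked bars give each member's share of the reads of its family (percent) in each sample, HSP70 on the left and HSP90 on the right. Hspa1l and Hspa5 fill most of the rolling HSP70 bars, Hspa9 and Hspa5 most of those of stretching 1 and 3, with Hspa8 added in stretching 2. Hsp90b1 fills the rolling HSP90 bars and Hsp90aa1 the stretching ones.

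The HSP90 sum was 77.0, 143 and 171 in rolling, against 185, 297 and 152 in stretching. Rolling 3 lay above stretching 3, so the groups overlapped, and the log2 ratio was -0.72 (SE 0.45). With TMM scaling the HSP90 sums did not overlap, at 85.5 to 160 in rolling and 163 to 302 in stretching. Hsp90b1 made up 89.4 ± 3.95% of the HSP90 reads in rolling and 6.88 ± 1.03% in stretching, and Hsp90aa1 4.43 ± 2.71% in rolling, against 92.2 ± 0.868% in stretching (SD, n = 3 each). The HSP90 reads were thus mostly of the ER symbol in rolling and mostly of a cytosolic symbol in stretching.

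By compartment, the 5 cytosolic HSP70 members summed to 371, 354 and 453 in rolling, against 91.0, 362 and 66.5 in stretching, and overlapped because of stretching 2. The 2 cytosolic HSP90 members summed to 11.6, 11.02 and 15.2 in rolling, against 174, 274 and 141 in stretching, with no overlap. All 7 cytosolic members summed to 405 ± 55.4 in rolling, against 370 ± 233 in stretching (SD, n = 3 each), a log2 ratio of 0.30 (SE 0.50) that was -0.03 without stretching 3 and 0.78 without stretching 2.

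The 2 ER members summed to 469, 365 and 455 in rolling, against 289, 315 and 345 in stretching. The lowest rolling value lay above the highest stretching value, and the log2 ratio was 0.44 (SE 0.14). The ER sums overlapped with TMM scaling, at 347 to 521 in rolling and 317 to 370 in stretching. They also overlapped as a share of counted reads, at 0.0373% to 0.165% in rolling and 0.0572% to 0.0688% in stretching. The median over all tested features was 0.10 (log2) with the deposited size factors and -0.06 with scaling to library totals. The sum over all 10 members was 839 ± 97.4 in rolling, against 1021 ± 286 in stretching (SD, n = 3 each), with overlapping groups and a log2 ratio of -0.25 (SE 0.24).

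**Figure D4:**
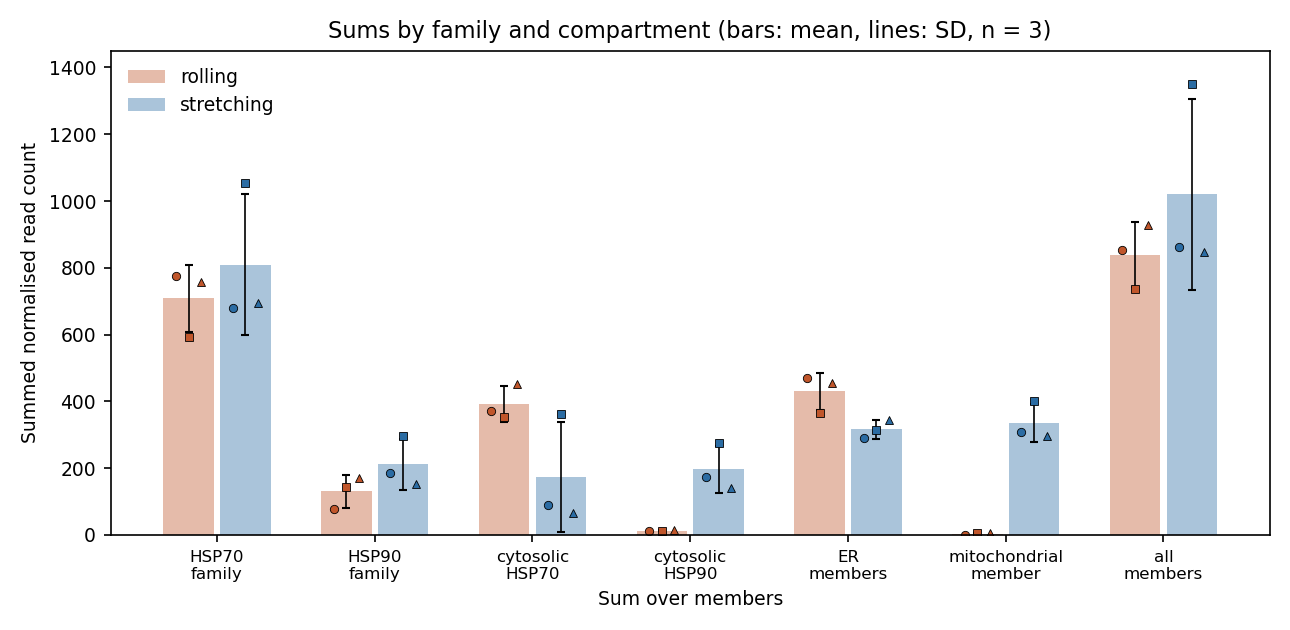
Bars give the mean summed normalised read count by family and compartment, lines the SD (n = 3), and points the samples. The HSP70, HSP90, cytosolic HSP70 and overall sums overlap between groups, the cytosolic HSP90 and mitochondrial values are low in rolling, and the ER sums do not overlap on this scale.

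By the root mean square difference of mean-centred log2(value + 1) over the 6 samples, the feature most like Hspa1l among 2947 was Mknk1 (0.21), followed by Scrn3 (0.24) and Psma3 (0.25). Those most like Hspa9 were Vapb (0.19), Cachd1 (0.39) and Prpf18 (0.45). The median over all features was 2.73 for Hspa1l and 3.24 for Hspa9. With only 2 groups, this measure mostly reflects the size of the difference between groups.

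Few related chaperone genes reached the level for testing, in about the same proportion as among all symbols. Of 154 listed symbols in the table, 128 had reads (83.1%, beside 74.8% of all symbols) and 18 were tested (11.7%, beside 12.1%). Of the 18, 3 were higher and 8 lower in rolling, or 61.1% called against 75.2% of all tested features. Their median log2 fold change was -0.97, against 0.10 for all tested features. No member of 4 lists, of other HSP70 and HSP90 relatives, nucleotide exchange factors, small heat shock proteins, and chaperonins with prefoldin and mitochondrial proteases, reached the level for testing. The small heat shock proteins together had a summed normalised count of at most 10.01 in any library.

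Of 5 tested J-domain proteins, 2 were higher and 1 was lower in rolling. Dnajc10, an ER disulphide reductase that works with Hspa5, stood at 29.2 ± 9.16 in rolling, against 1.80 ± 2.33 in stretching (SD, n = 3 each), with a difference of 3.74 ± 0.62 (log2, SE; adjusted p 0.00047 by limma) and of 4.39 without stretching 3. Dnajc27, a small GTPase that carries a J domain, had 165 reads in rolling and 1 in stretching, for a depth-adjusted ratio of 128 (95% interval 22.7 to 5104). That ratio was 63.5 without rolling 1, which held most of the reads, and 81.1 without stretching 1, and without stretching 3 no stretching read was left and the ratio was at least 29.2. Sec63, which recruits Hspa5 to the ER translocon, fell to 2.11 ± 1.37 in rolling, against 24.9 ± 13.8 in stretching, a difference of -3.0 ± 0.54 (log2, SE; adjusted p 0.00073 by limma). Dnajb14, an ER membrane protein, stood at 23.9 ± 19.7 in rolling, against 24.2 ± 9.80 in stretching and was not called (limma adjusted p 0.57).

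Of 24 HSP90 co-chaperones, 2 were tested. Neither was called by limma, edgeR or DESeq2, and 0 of the 2 had an unadjusted limma p under 0.05. Fkbp5, an immunophilin of steroid receptor complexes, stood at 139 ± 32.6 in rolling, against 91.4 ± 22.5 in stretching (SD, n = 3 each; limma adjusted p 0.15). Tomm70a, the import receptor on which HSP70 and HSP90 dock at mitochondria, stood at 34.3 ± 22.4 in rolling, against 68.6 ± 27.2 in stretching (limma adjusted p 0.086). It was called lower by limma without rolling 3 (adjusted p 0.019) and with quantile normalization (adjusted p 0.047).

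Of 6 tested ER folding genes, 1 was higher and 2 were lower in rolling. P4hb, protein disulphide isomerase, stood at 303, 187 and 242 in rolling, against 46.0, 46.4 and 43.2 in stretching, with a difference of 2.38 ± 0.33 (log2, SE; adjusted p 0.00016 by limma). Uggt2, a glucosyltransferase that senses misfolded glycoproteins, fell by 2.54 log2 units (SE 0.58, adjusted p 0.0031 by limma), a call that was lost without rolling 3 and stretching 3 together (-2.31, limma adjusted p 0.051). Calnexin, Canx, fell by 0.90 (SE 0.34, adjusted p 0.039 by limma), and that call was lost without rolling 3 (0.091) and without stretching 1, 2 or 3 (0.080, 0.095 and 0.050), as well as without a filter (0.11), with edgeR (0.0505), with DESeq2 (0.090), with scaling to library totals (0.20) and with the replicate block (0.070). The fold change itself stayed between -1.07 and -0.70 in these settings. Calreticulin, Calr, stood at 117 ± 25.6 in rolling, against 119 ± 10.9 in stretching and was not called (limma adjusted p 0.90).

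All 5 tested regulators of the heat shock and unfolded protein responses were lower in rolling, where 37.4% of all tested features were lower. Hsf4, a heat shock factor known from the lens in mammals, stood at 0, 0 and 0 in rolling, against 170, 199 and 103 in stretching, and was at least 191-fold lower in rolling with 3 reads over the group as the floor. Hsf5, a heat shock factor known from mouse testis, fell to 2.15 ± 2.17 in rolling, against 101 ± 48.3 in stretching (SD, n = 3 each), a difference of -5.22 ± 0.64 (log2, SE; adjusted p 6.6e-05 by limma) and of -4.55 without rolling 2.

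Ern2, an ER stress sensor of mucosal epithelium in mammals, rested on 3 reads in rolling and 615 in stretching, for a depth-adjusted ratio of 0.00380 (95% interval 0.000781 to 0.0112). All 3 reads were in rolling 2, and without that library it was at least 204-fold lower in rolling. The ratio was 0.00795 without rolling 1 and 0.00625 without stretching 1. Xbp1, the transcription factor activated by that type of sensor, fell by 3.63 log2 units (SE 0.44, adjusted p 6.1e-05 by limma), and Atf6, another ER stress sensor, fell by 2.68 (SE 0.45, adjusted p 0.00047 by limma). The untested regulators did not all share this direction. Hsf2, a heat shock factor active in development, had 30 reads in rolling and 6 in stretching, and Hsf2bp, which binds it, had 31 reads in rolling and none in stretching. Hsf1, the main heat shock factor of mammals, had 1 read in rolling and none in stretching. Eif2ak3 had 11 reads in rolling and none in stretching, while Hsbp1 had 1 in rolling and 10 in stretching.

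**Figure D5:**
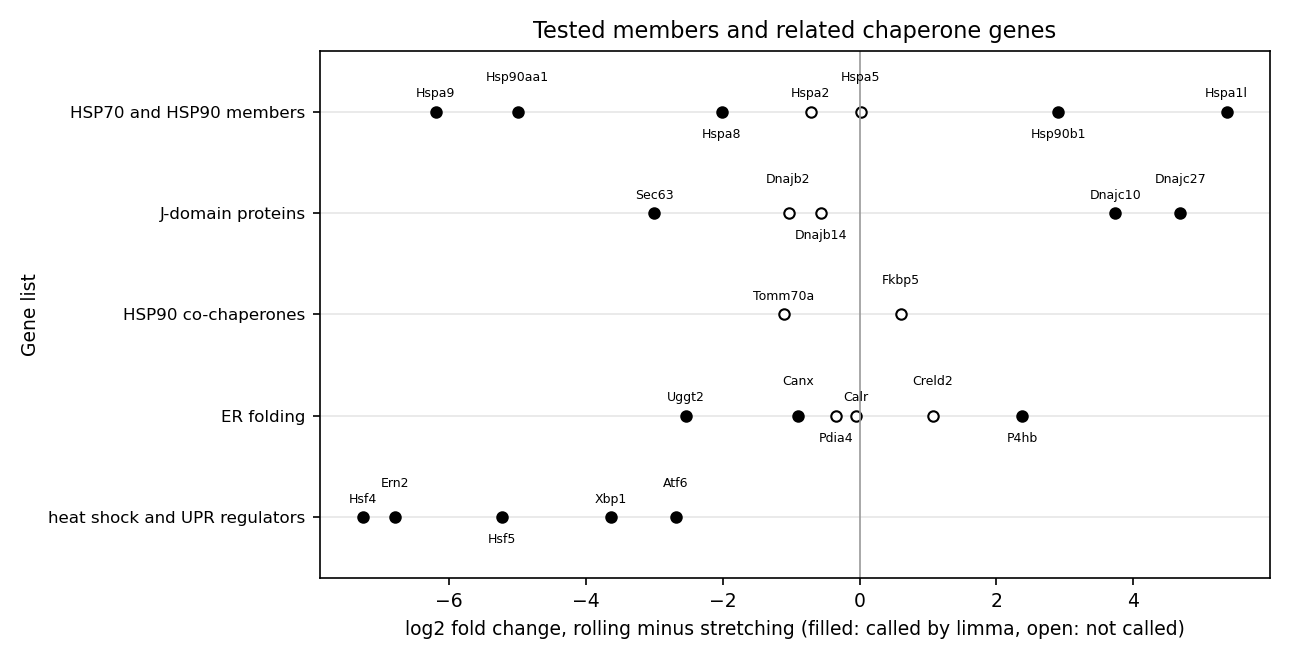
Each point is the log2 fold change (rolling minus stretching) of a tested gene, filled where limma called it and open where it did not (UPR, unfolded protein response). The 5 regulators all lie left of 0, while the members, J-domain proteins and ER folding genes lie on both sides.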

How the data were processed

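Poly(A) RNA of 3 rolling and 3 stretching samples was sequenced. Per the submitters' processing notes, BWA, DESeq2 and build mm10 were used, with no versions or roles. For the counter and the annotation, the sources used here give nothing. Per the file headers, the deposited table gives for each mouse symbol a normalised signal per sample and the authors' own comparison (log2 fold change, its standard error, test score, p-value, adjusted p). Columns headed curl and strait were matched to the 2 groups by word meaning.

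Division of a column by its lowest nonzero value gave whole reads for 100% of values (tolerance 1e-06). With R 4.3.3, limma 3.58.1 and its mean-variance trend were fitted to log2(value + 1) of the 2948 features with a mean of at least 10, two-sided, with Benjamini-Hochberg adjustment over all of them. Fold changes are rolling minus stretching and understate low genes. Sums have no test. Log2 ratios of sums are differences of mean log2 sums. For genes with few reads, reads per group were compared with size factors as exposure. Intervals and floors cover counting error only. Alternatives included edgeR 4.0.16 and DESeq2 1.42.0 on the recovered reads, which called 5 and 7 members. The fits were also run on simulated data with far fewer changed features than were called here, so that run does not vouch for these calls.

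Members and lists were chosen with earlier results of these data known. Named were all members, up to 4 called genes with the smallest adjusted p and the 2 with the highest mean of each related list, and the 3 features most like the members with the largest rise and fall. Atf6, Acta1, Myh6, the untested genes and the genes of the closing section were named after their values were seen.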

Additional observations from a re-analysis of the deposited data

How the results depend on the processing

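Hspa1l, Hsp90b1, Hspa9 and Hsp90aa1 kept their direction and their call under every alternative that tested them, with ranges of 4.45 to 5.74, 2.43 to 3.28, -6.58 to -4.83 and -5.33 to -3.92. The values nearest 0 came from a pseudocount of 8, and the called sign of Hspa8 also held throughout. Leaving out each sample in turn gave 2 members higher, 2 to 3 lower, 3 to 4 related genes higher and 7 to 9 lower. Without a filter, 5 members were higher (Hspa1a, Hspa1b and Hsp90ab1 added, with adjusted p 0.038, 0.0066 and 0.0499), and 14 related genes were higher and 15 lower. With a minimum mean of 100, 1 member was higher and 1 lower, and 1 related gene was higher and 1 lower, since fewer genes were tested. DESeq2 called 4 members and 7 related genes higher, and 3 members and 11 related genes lower. A pseudocount of 8 brought related genes closer to 0 with their calls kept: Dnajc10 was at 1.92, Sec63 at -1.62, Uggt2 at -1.39, Xbp1 at -1.99, Hsf5 at -3.36 and Atf6 at -1.67. With edgeR, Sec63 was at -3.67 and Xbp1 at -4.44. The bound of Hsf4 was at least 91.3-fold lower without rolling 1. Hspa5 changed sign with TMM scaling (-0.075), scaling to library totals (-0.17) and edgeR (-0.077), and ranged from -0.19 to 0.21 without single samples, and Hspa2 from -1.51 to 0.062, where the cause was not tested.

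Without single samples, the log2 ratio of sums was -0.28 to 0.03 for HSP70, -0.95 to -0.37 for HSP90, -0.03 to 0.78 for cytosolic members, 0.37 to 0.55 for ER members and -0.37 to -0.03 for all members. Scaling to library totals gave 0.25 for ER members. Without the member with the most reads, it was 2.91 for HSP90 (without Hsp90aa1), -2.21 for cytosolic members (without Hspa1l) and 2.996 for ER members (without Hspa5).

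Same-numbered samples did not deviate together (correlations of 0.02, -0.01 and 0.01), and neither did samples of different number (-0.03 to 0.02). With 3 samples per group this cannot tell whether same-numbered samples share a batch or source, and the labels state no pairing. With the replicate block, 2 members were higher and 3 lower, as without it, and 3 related genes were higher and 7 lower. Leaving out rolling 3 and stretching 3 together, chosen after seeing the data, ended the calls of Hspa8 (log2 fold change -2.35, limma adjusted p 0.060), Uggt2 and Canx (-0.81, 0.12), and Tomm70a was called (-1.88, 0.023).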

Other observations

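Other mitochondrial chaperones, picked out after their values were seen, did not all follow Hspa9. Trap1, the mitochondrial HSP90, had no read in rolling and 20 in stretching, at least 8.56-fold lower in rolling. Hspd1, the mitochondrial chaperonin, had 22 reads in rolling and 1 in stretching, a depth-adjusted ratio of 17.1 (95% counting interval 2.77 to 707), which was 10.8 without stretching 1 and at least 3.93 without stretching 2, the library with the stretching read. Lonp1, the matrix protease, had 16 reads in rolling and none in stretching, at least 4.15-fold higher. Other mitochondrial genes of the lists also went both ways. Grpel2 (2 reads in rolling against 13 in stretching) and Clpb (15 against 35) went the way of Hspa9, while Clpp (6 against none) did not. All of these genes except Hspa9 were under the level for testing.

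Among the untested partners of the cytosolic members, Bag3, an exchange factor induced by stress in mammals, had 28, 16 and 16 reads in rolling and none in stretching, at least 15.6-fold higher with 3 reads over the group as the floor. Sugt1, an HSP90 co-chaperone, had 5, 8 and 9 reads in rolling and none in stretching, at least 5.71-fold higher. In the other direction, Dnajb4, a J-domain protein of the cytosol, had 7 reads in rolling and 42 in stretching, for a depth-adjusted ratio of 0.130 (95% interval 0.0492 to 0.292), and of 0.0496 without rolling 3. Bag2, from the list of Bag3, had no read in rolling and 13 in stretching. Ppp5c, from the list of Sugt1, had no read in rolling and 11 in stretching. The HSP70 relative Hspa4 had 19 reads in rolling and 13 in stretching, with a ratio of 1.14 (0.533 to 2.51), or 0.775 to 2.54 without single libraries.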
